A study of Rattus norvegicus with 12 samples.

Results

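The transcripts described here encode 10 plasma membrane and lysosomal carriers of amino acids: Slc38a1, Slc38a2, Slc3a2, Slc7a1, Slc7a5, Slc7a11, Slc1a4, Slc1a5, Slc6a9 and Slc36a1. They are 10 of the 36181 genes and transcripts on the array, and 14 of its 45598 probes carry their names. The genes were chosen by measured values of the same arrays, namely the difference between fipronil and control, over all arrays and on slide 1 apart. That difference is therefore given below as a description of the members and not as a test. After the filter on dim probes 8 members remained among 13542 genes, and Slc38a1 and Slc36a1 did not pass it. A member that passes because it is bright in 1 group is more likely to differ, so the 8 are not the whole group.

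One-colour microarrays were hybridised with total RNA of N27, a rat line that the labels describe as a dopaminergic neuron and that is an immortalised derivative of fetal midbrain. The fipronil group was 6 samples kept for 24 h in 25 µM fipronil, and the control group was 6 samples of the same line that the study describes as not treated. Fipronil is a phenylpyrazole insecticide that acts on GABA-gated chloride channels. Whether control cells received the solvent, and whether the replicates of a group were separate cultures, the labels do not say, so p-values reflect only how far these samples scatter, which could be technical.

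Cells take up amino acids through families of carriers that differ in substrate and in what drives them. System A carriers such as Slc38a2 use the sodium gradient to concentrate small neutral amino acids, above all glutamine and alanine. Exchangers built from the heavy chain Slc3a2 and a light chain of the Slc7 family trade amino acids inside the cell for others, such as leucine or cystine. When amino acids run short, uncharged transfer RNA activates the kinase Eif2ak4, translation of the transcription factor Atf4 rises, and Atf4 drives genes of amino acid synthesis together with many of these carriers. The carriers supply glutathione synthesis and growth signalling by mTORC1, and in the brain they also feed neurons with the glutamine from which glutamate is made.

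Atf4 acts through a composite site that contains the letters TGATGNAA. The sequence just upstream of the start is shown for 5 members. They include the 3 members with a match to these letters, beside Slc38a2 and Slc7a5 without one. The windows that are not printed held no match. RefSeq's table for the rat assembly GRCr8 held 10 windows for 9 of the 10 members, and Slc1a5 was not matched. Each window below covers the 250 bases before the annotated start, 5′ to 3′ on the strand of the gene, with a match to TGATGNAA on either strand in capitals. The windows are chr7:129742620-129742869 on the minus strand for Slc38a2, chr7:129681402-129681651 on the minus strand for Slc38a1, chr12:11664238-11664487 on the plus strand for Slc7a1, chr19:66872413-66872662 on the minus strand for Slc7a5 and chr14:98761563-98761812 on the minus strand for Slc1a4.
Slc38a2: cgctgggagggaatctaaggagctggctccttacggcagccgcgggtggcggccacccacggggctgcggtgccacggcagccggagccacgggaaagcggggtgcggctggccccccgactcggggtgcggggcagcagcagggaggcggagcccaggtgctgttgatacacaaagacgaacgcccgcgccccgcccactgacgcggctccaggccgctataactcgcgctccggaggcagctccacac
Slc38a1: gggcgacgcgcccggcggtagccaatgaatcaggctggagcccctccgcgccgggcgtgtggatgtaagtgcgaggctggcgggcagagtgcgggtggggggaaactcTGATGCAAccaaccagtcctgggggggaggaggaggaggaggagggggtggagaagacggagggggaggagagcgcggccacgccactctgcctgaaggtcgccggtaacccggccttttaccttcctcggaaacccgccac
Slc7a1: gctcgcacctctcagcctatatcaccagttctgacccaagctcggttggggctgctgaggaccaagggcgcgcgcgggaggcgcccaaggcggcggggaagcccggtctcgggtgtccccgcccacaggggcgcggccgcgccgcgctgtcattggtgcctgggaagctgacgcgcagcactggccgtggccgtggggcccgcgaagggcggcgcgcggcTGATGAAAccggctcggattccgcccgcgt
Slc7a5: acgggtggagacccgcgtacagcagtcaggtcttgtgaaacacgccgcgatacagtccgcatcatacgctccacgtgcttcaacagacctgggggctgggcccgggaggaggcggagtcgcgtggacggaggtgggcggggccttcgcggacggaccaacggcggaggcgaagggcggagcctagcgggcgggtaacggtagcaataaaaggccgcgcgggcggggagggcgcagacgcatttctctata
Slc1a4: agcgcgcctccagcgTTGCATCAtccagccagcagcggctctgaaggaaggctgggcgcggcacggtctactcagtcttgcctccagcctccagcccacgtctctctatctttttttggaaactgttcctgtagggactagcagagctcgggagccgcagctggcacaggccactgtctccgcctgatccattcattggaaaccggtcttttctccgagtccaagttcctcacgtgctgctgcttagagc
The letters TGATGNAA occurred in 3 of the 10 windows, those of Slc38a1, Slc7a1 and Slc1a4, and in 3.4% of 33469 windows of the same length from all genes. The match began 142 bases before the start of Slc38a1, 30 bases before that of Slc7a1 and 235 bases before that of Slc1a4, where it lies on the opposite strand. The window of Slc38a2, the member with the largest difference below, did not hold these letters. Known Atf4 sites can lie outside such a window, and that of Slc38a2 has been described in an intron. The AP-1 letters TGACTCA were in 0 of the 10 windows against 4.05% of all, and GCNNNGTCA, a core of the antioxidant response element, was in 4, those of Slc38a2, Slc7a1, Slc36a1 and 1 of the 2 windows of Slc3a2, against 3373 of all 33469. The E-box CACGTG was in 3, those of Slc7a5, Slc1a4 and Slc36a1, against 5.59%. Both strands were searched for each motif. A TGACTCA read on the opposite strand can lie within GCNNNGTCA, but no member window held a TGACTCA. A match describes letters only and names no bound factor.

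Both treatments met on 1 of the 3 slides, slide 1, with controls 2 and 3 and fipronil replicates 7 and 8. The remaining controls, 5 to 8, were on slide 2, and the remaining fipronil replicates, 1 to 4, on slide 3. The 75th percentile of the processed signal, to which each array was scaled, was 245 to 279 on slide 1, 379 to 472 on slide 2 and 111 to 140 on slide 3. Treatment and slide can thus be told apart only on slide 1, and each difference is given over all arrays, on slide 1, and for slide 3 against slide 2. In limma's fit over all genes 678 of 13542 had an adjusted p under 0.05, 303 of them higher and 375 lower with fipronil. With slide as a fixed block there were 12, or 0.0886%, and no member was among them. In that fit the treatment difference comes from the arrays of slide 1 alone. Of the markers of dopaminergic neurons 5 of 10 were never well above background, among them Slc6a3 and Ddc, for the dopamine transporter and the enzyme that makes dopamine, while Th, which encodes tyrosine hydroxylase, was well above it on every array. Never well above background were 5 of 8 astrocyte, 4 of 7 oligodendrocyte, 4 of 7 microglia and leukocyte and 3 of 6 endothelial markers. Of each of these types 2 markers were tested and 0 passed the threshold, against 5.01% of all genes. Among those tested, Sox9, Aldoc, Cx3cr1, Cd14, Vwf and Flt1 were well above background on all 12 arrays. Of 10 neuronal markers 5 were never well above it, and of 4 tested Ncam1 passed (log2 difference 0.73, limma adjusted p 0.0171). Of those 4, Tubb3 alone had a negative difference (-0.355, limma adjusted p 0.678). Ncam1 differed by 0.25 on slide 1 and by 0.97 for slide 3 against slide 2, and it no longer passed without controls 5 and 6 (adjusted p 0.0722). Of the 4 neuronal markers 0 passed once slide was a fixed block. Of the 2 tested dopaminergic markers, Aldh1a1 differed by -0.84 (limma adjusted p 0.0678) and Th by -0.48 (0.152). Without controls 5 and 6 Aldh1a1 passed (-1.21, limma adjusted p 0.0271), where 0.694% of all genes did, and Th did not (-0.42, 0.340). Aldh1a1 was well above background on 6 control but only 2 fipronil arrays.

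Control replicates 5 and 6, both on slide 2, stood apart from the other controls in the genes described here. They were the highest pair of the 6 controls for 7 of the 8 tested members, all but Slc38a2. Over all tested genes they were the highest pair for 26.6%. Relative to the mean of slide 2, the median over the 8 members was 0.40 on control 5 and 0.60 on control 6, and it was -0.53 on control 7 and -0.38 on control 8. The corresponding medians over all genes lay between -0.03 and 0.02. This separation was noticed in the values. Results that rest on these libraries are therefore given with and without both.

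The system A carrier Slc38a2 was lower in every fipronil array than in every control array. The 6 controls read 2.50, 2.35, 2.41, 2.58, 2.33 and 2.37 (replicates 2, 3, 5, 6, 7 and 8), as log2 of the signal relative to the 75th percentile of the array. The fipronil arrays read 1.60 and 1.80 on slide 1 (replicates 7 and 8) and 1.76, 1.70, 1.47 and 1.91 on slide 3 (replicates 1 to 4). The groups did not overlap, and the lowest control stood above the highest fipronil array. The means were 2.42 ± 0.10 (SD, n = 6) and 1.71 ± 0.16 (SD, n = 6), a log2 difference of -0.71 ± 0.10 (SE), or 1.64-fold lower with fipronil. In total RNA, less transcript per cell and fewer cells that carry it cannot be told apart.

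The difference of Slc38a2 was -0.72 between the pairs of arrays on slide 1 and -0.71 for slide 3 against slide 2, where treatment and slide cannot be told apart. The mean of the exposed cells differed by 0.01 between slides 3 and 1, and that of the untreated cells by less between slides 2 and 1, although the 75th percentile differed between those slides. Unscaled, its processed signal ran from 1376 to 2796 in controls and from 362 to 855 with fipronil. With controls 5 and 6 both left out it was -0.68 ± 0.12. Its probe lies at chr7:135365535-135365594 on the minus strand in the rn4 coordinates of the array files and begins with these letters, the only Slc38a2 sequence on the array.
Slc38a2 probe, first 30 of 60 bases: attccccctaaattttcttaactgcatttt
Slc38a2 was the only 1 of the 8 tested members past the adjusted threshold of 0.05 in limma's fit, where 5.01% of all genes passed, made up of 2.77% that were lower and 2.24% that were higher with fipronil. Nothing is read from that count, since the contrast chose the members. Groups without overlap, lower with fipronil, were seen for 2.55% of all genes.

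**Figure D1:**
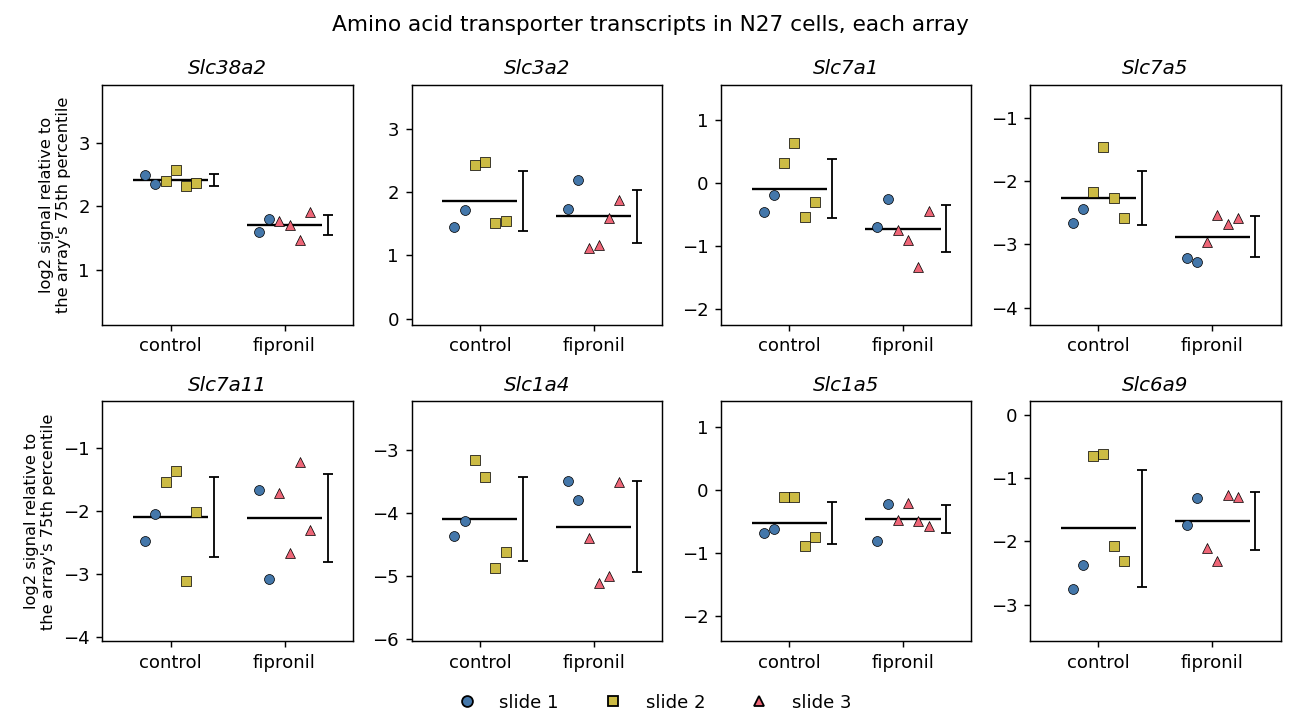
Log2 signal relative to the array's 75th percentile (y axis) of the 8 tested carriers in the 6 control and 6 fipronil arrays (x axis), with 1 point per array, a horizontal line at the group mean and a bar of ± 1 SD. Marker shape and colour give the slide, and every panel spans the same number of log2 units. Slc38a2 runs from 2.33 to 2.58 in controls and from 1.47 to 1.91 with fipronil, while in the other panels the groups overlap.

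Slc38a1, the other widely expressed system A carrier of neurons, was not well above background on any of the 12 arrays with either of its 2 probes. Their processed signals reached at most 11.1. No difference is given for it. Slc38a1 and Slc38a2 are immediate neighbours on chromosome 7 of GRCr8, followed by Slc38a4. The lysosomal proton-coupled carrier Slc36a1 was likewise not well above background on any array with its single probe.

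The heavy chain Slc3a2, which carries its light chains to the cell surface, showed no single direction. Controls 5 and 6 read 2.44 and 2.48, above the other controls at 1.45, 1.71, 1.52 and 1.55. The fipronil arrays read 1.74 and 2.19 on slide 1 and 1.12, 1.16, 1.60 and 1.89 on slide 3. On slide 1 both fipronil arrays were above both controls, while over all arrays the groups overlapped across most of their range. The difference was -0.24 ± 0.24 (SE) over all arrays, 0.38 on slide 1 and -0.55 for slide 3 against slide 2. Without controls 5 and 6 it was 0.06.

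Of its light chains, Slc7a5 forms the exchanger LAT1, the main entry of leucine and other large neutral amino acids. Controls read -2.66, -2.43, -2.18, -1.46, -2.26 and -2.58 in the order of replicates 2, 3, 5, 6, 7 and 8. The fipronil arrays read -3.22 and -3.28 on slide 1 and -2.96, -2.53, -2.68 and -2.58 on slide 3. The lowest values were those of the fipronil arrays on slide 1, and control 6 was the highest. The means were -2.26 ± 0.43 and -2.88 ± 0.33 (SD, n = 6 each), a difference of -0.61 ± 0.21 (SE). The difference was -0.71 on slide 1 and -0.57 between slides 3 and 2, and the groups overlapped. The latter value rests in part on control 6, at -1.46. Controls 7 and 8, at -2.26 and -2.58, overlapped the fipronil arrays of slide 3. A fall of like size in both is therefore not shown apart from controls 5 and 6. Without those controls the difference over the remaining arrays was -0.39. With all arrays it was 0.21 after a normexp background with 75th percentile scaling.

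The light chain Slc7a11 forms the cystine and glutamate exchanger xCT, which supplies cysteine for glutathione. Its values scattered widely in both groups, from -3.12 to -1.37 in controls and from -3.08 to -1.22 with fipronil. The means were -2.10 ± 0.64 and -2.11 ± 0.70 (SD, n = 6 each). The difference was -0.01 ± 0.34 (SE), with -0.11 on slide 1 and 0.03 between slides 3 and 2. Without controls 5 and 6 it was 0.30.

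The cationic carrier Slc7a1, which brings in arginine and lysine and needs no heavy chain, was lower over all arrays but not evenly across slides. Controls read -0.47, -0.19, 0.31, 0.63, -0.55 and -0.30, of which the values above 0 are controls 5 and 6. The fipronil arrays read -0.70 and -0.26 on slide 1 and -0.75, -0.90, -1.33 and -0.45 on slide 3. Fipronil replicate 8 lay within the control range, as did fipronil replicate 4, and the groups overlapped. The difference was -0.64 ± 0.23 (SE) over all arrays, -0.14 on slide 1 and -0.88 between slides 3 and 2. It was -0.35 without controls 5 and 6. Without fipronil replicate 8 it was -0.73.

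Among the exchangers of small neutral amino acids, Slc1a5 is the glutamine exchanger that works alongside LAT1, and Slc1a4 carries serine and alanine. Slc1a5 ran from -0.89 to -0.11 in controls, where controls 5 and 6 both read -0.11, and from -0.81 to -0.20 with fipronil. Its difference was 0.06 ± 0.16 (SE), with 0.14 on slide 1 and 0.03 between slides 3 and 2, 0.27 without controls 5 and 6, and -0.04 under median scaling. The standard error of Slc1a5 was the smallest of the members after Slc38a2.

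Slc1a4 was dim, well above background on 5 of 6 control and 2 of 6 fipronil arrays. Controls read -4.36, -4.12, -3.16, -3.43, -4.86 and -4.61, highest again in replicates 5 and 6. The fipronil arrays read -3.48 and -3.79 on slide 1 and -4.40, -5.10, -4.99 and -3.51 on slide 3, so both groups spread over more than a log2 unit and overlapped. Its difference was -0.12 ± 0.36 (SE), with 0.61 on slide 1, -0.48 between slides 3 and 2, and 0.28 without controls 5 and 6. Since most of its fipronil values are near background, its direction is not settled by these arrays.

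Slc6a9 encodes the glycine carrier GlyT1, which in the brain sets extracellular glycine. Controls 5 and 6 read -0.65 and -0.61, far above the other controls at -2.76, -2.38, -2.07 and -2.31. The fipronil arrays read -1.73 and -1.31 on slide 1 and -2.11, -2.32, -1.26 and -1.30 on slide 3. Fipronil replicates 1 and 2 lay within the range of the 4 lower controls, and the other exposed samples between them and controls 5 and 6. The difference over all arrays was 0.12 ± 0.37 (SE), against 1.04 on slide 1 and -0.34 between slides 3 and 2. Without controls 5 and 6 it was 0.71 ± 0.24, so its value depended on those libraries.

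3 members had a second probe with another reading. The first letters of these probes are given to show that the probes of a gene are different sequences.
Slc6a9, brighter probe, first 30 bases: gtacagtgttacttgttggactgcaccact
Slc6a9, dimmer probe, first 30 bases: ctgcatcccattgtacgcattgttccagct
Slc7a1, brighter probe, first 30 bases: gtcacagagggtcatgatactaatgagggc
Slc7a1, dimmer probe, first 30 bases: ggtaccctttgtccccgtacttcctgtctt
Slc7a11, brighter probe, first 30 bases: agggtgaagtaggttctgtagttaatgact
Slc7a11, dimmer probe, first 30 bases: ataaccagaacattacagattatactagaa
In rn4 the probes of Slc6a9 lie at chr5:138334287-138334346 and chr5:138333457-138333516 on the plus strand, in that order. The dimmer Slc6a9 probe was well above background on 5 of 6 control and 0 of 6 fipronil arrays, so it did not pass the filter and no fold is given. Its processed signal ran from 5.0 to 42.9 in controls, highest in replicate 6, and with fipronil it ran from 2.1 to 12.9. The brighter one was well above background on all 12. The dimmer probes of Slc7a1 and Slc7a11 were not well above background on any array, so the values of those genes rest on 1 probe each. Where in the transcripts these probes lie was not analysed here.

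**Figure D2:**
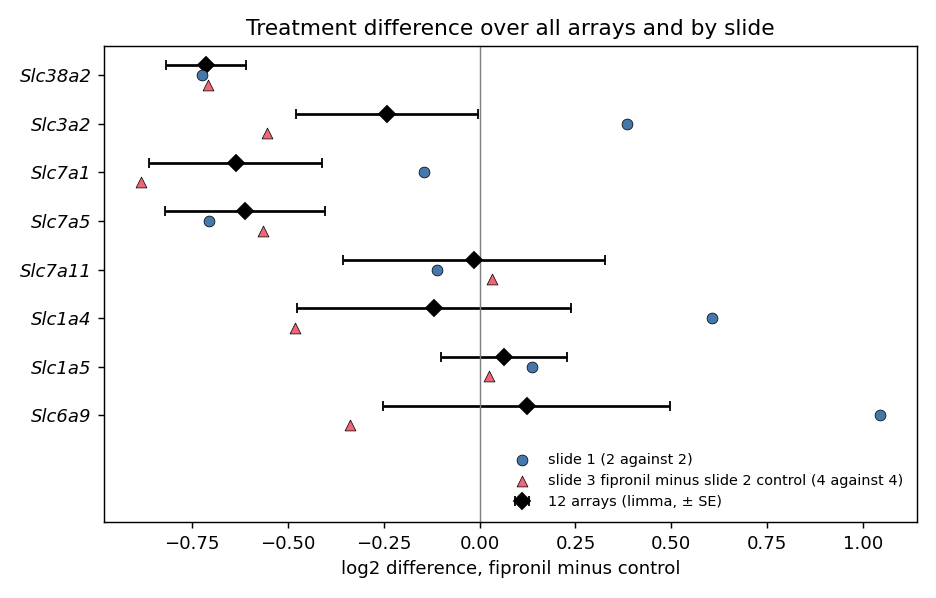
Log2 difference, fipronil minus control (x axis), for the 8 tested carriers (y axis). Black diamonds give the fit over 12 arrays with bars of ± 1 SE, circles the difference on slide 1 (2 against 2 arrays) and triangles slide 3 fipronil minus slide 2 control (4 against 4). The 3 values of Slc38a2 lie between -0.72 and -0.71, whereas those of Slc6a9 run from -0.34 to 1.04.

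Among the 8 tested members 6 had a negative difference over all arrays, against 59.7% of all genes, and 4 had one on slide 1, against 51.6%. After a normexp background with 75th percentile scaling, Slc7a5, Slc7a11 and Slc1a4 turned to 0.21, 0.41 and 0.69, while the median of all genes moved to 0.17. With the reported processing, the median of the 8 tested members was -0.18 over all arrays, 0.01 on slide 1 and -0.52 between slides 3 and 2. The same medians over all genes were -0.08, -0.02 and -0.10. Without controls 5 and 6 the members' median was 0.17, and 5 of 8 differences were positive. The direction of the median thus turned with those libraries, and for all genes it was then -0.07. On slide 1 the pairs did not overlap for Slc38a2 and Slc7a5, lower with fipronil, and for Slc3a2, Slc1a4 and Slc6a9, higher with fipronil. With 2 arrays a side, 28.5% of all genes did not overlap on slide 1 with fipronil lower and 25.2% with fipronil higher.

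The other carriers of amino acids, listed by family, were mostly not expressed at a measurable level. Of 43 on the array, 27 were never well above background and 11 were tested. In limma's fit 1 of the 11 passed, the neuronal glutamate and cysteine carrier Slc1a1, against 5.01% of all genes, and the median difference was -0.21. Slc1a1 rose from -3.50 ± 0.21 to -2.56 ± 0.50 (SD, n = 6 each), a log2 difference of 0.94 ± 0.21 (SE, adjusted p 0.0271), or 1.92-fold. The rise was 0.44 on slide 1 and 1.19 between slides 3 and 2, and the fipronil arrays of slide 1, at -3.23 and -3.15, overlapped the controls, whose highest was -3.12. The call held without control replicate 5 or fipronil replicate 7 or 8, and was lost without any other single array (adjusted p 0.0516 to 0.0667). It was also lost without both controls 5 and 6 (1.06, adjusted p 0.0596) and with slide as a random block (0.78, adjusted p 0.117), where 0 of the 11 passed. After a normexp background the difference of Slc1a1 was 0.83 with 75th percentile scaling and 0.30 with quantile normalization.

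Genes of the amino acid response, the sensors, Atf4 and its targets, were tested for 17 of 18 listed. In limma's fit 0 of 17 passed the adjusted threshold, against 5.01% of all genes, and 2 had an unadjusted p under 0.05, against 25% of all genes. Atf4 itself was at 4.71 ± 0.42 in controls and 4.48 ± 0.26 with fipronil (SD, n = 6 each), a difference of -0.23 ± 0.19 (SE, adjusted p 0.481). That of Atf4 was 0.23 on slide 1 and 0.04 without controls 5 and 6. Gcn1, the partner through which Eif2ak4 senses stalled translation, differed by -0.23 ± 0.12 (SE, adjusted p 0.256). The list's median was -0.20 over all arrays and 0.34 on slide 1, against -0.08 and -0.02 for all genes. Of the 17 genes, 2 were lower with fipronil on slide 1, against 51.6% of all genes.

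The members and these genes shared the pattern of controls 5 and 6. That pair was the highest of the 6 controls for 14 of the 17 response genes and for 13 of 17 genes of amino acid use. It was so for 5 of 9 genes of cystine and glutathione metabolism, against 26.6% of all genes. For the other carriers the count was 3 of 11, or 27.3%, near the share of all genes. The genes named next were chosen after their values were seen. The pseudokinase gene Trib3, an Atf4 target, read 1.14 and 0.95 in controls 5 and 6 and -1.75, -1.13, -1.50 and -0.90 in controls 2, 3, 7 and 8. The asparagine synthetase gene Asns read 1.74 and 1.81 against -0.54, -0.20, 0.27 and 0.19 in the same order. These controls were above every fipronil array for Asns, where exposed cells ran from 0.45 to 1.63.

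Without controls 5 and 6, 0 of 17 response genes passed in limma's fit, 12 of 17 differences were positive, against 41% of all genes, and the list's median was 0.13, against -0.07 for all genes. Over all genes 94 then passed, 0.694%. Asns was then higher by 1.25 (adjusted p 0.0511) and the stress factor gene Ddit3 by 1.17 (adjusted p 0.0674), neither past the threshold. With all arrays Asns stood at 0.63 ± 0.40 (SE, adjusted p 0.340) and Ddit3 at 0.73 ± 0.33 (SE, adjusted p 0.189). Slc38a2, which Atf4 is known to induce, stayed lower in both fits. What sets controls 5 and 6 apart was not tested.

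**Figure D3:**
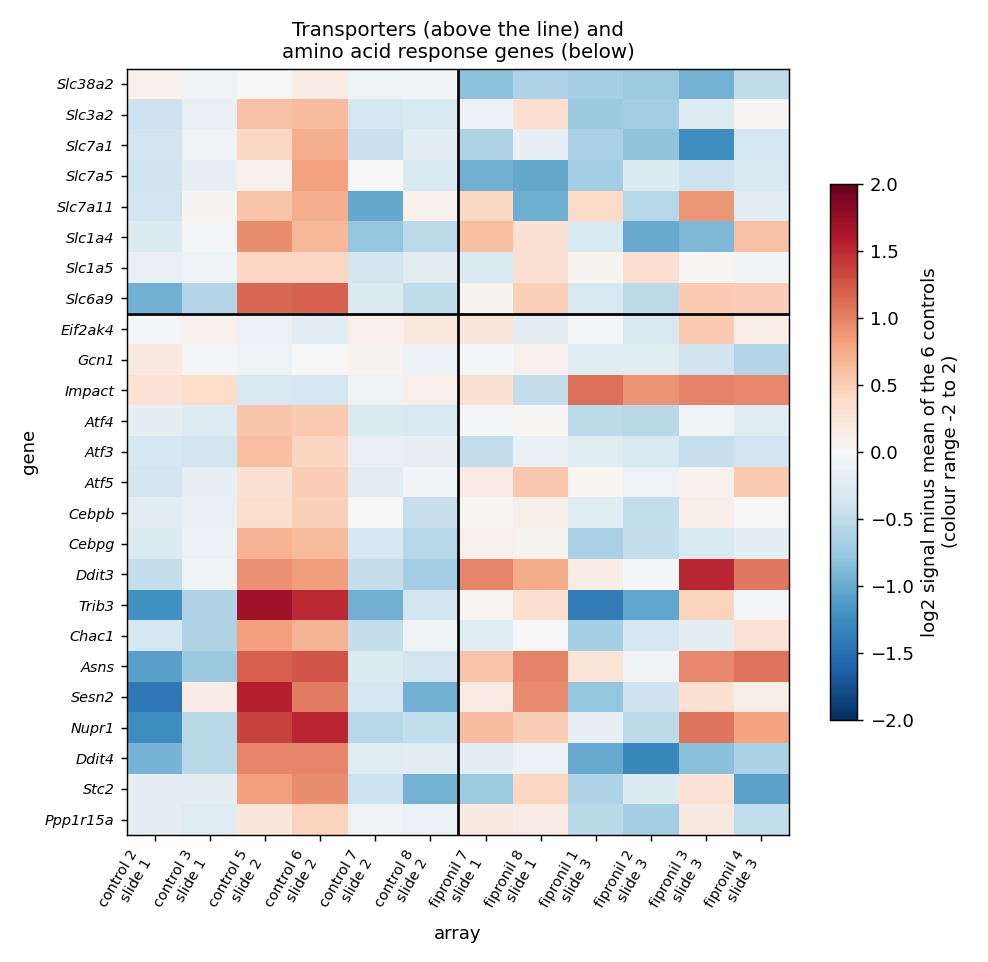
Log2 signal minus the mean of the 6 controls (colour, -2 to 2) for the 8 tested carriers above the horizontal line and 17 amino acid response genes below it (y axis), on each of the 12 arrays (x axis, with slide). Controls 5 and 6 are the highest controls for 7 of the 8 carriers and for 14 of the 17 response genes, and Slc38a2 is below its control mean on all 6 fipronil arrays.

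In cystine and glutathione metabolism, which Slc7a11 supplies, 1 of 9 tested genes passed in limma's fit, against 5.01% of all genes, and 0 of 9 with slide as a random block (Cbs -0.99, adjusted p 0.0828). Cbs, which makes cystathionine on the route from methionine to cysteine, was at -3.45 ± 0.27 in controls and -4.39 ± 0.38 with fipronil (SD, n = 6 each), a difference of -0.93 ± 0.18 (SE, adjusted p 0.0187). It was well above background on 0 of 6 fipronil arrays. With fipronil values under the background level raised to it, Cbs was 1.28-fold lower. That is not a firm lower limit, since the level was not measured at the Cbs spot. The background level is the lowest signal of any probe called well above background on the array. Cbs passed the filter through its control arrays alone, which favours a difference in this direction. After a normexp background its difference was 0.48 with 75th percentile scaling and -0.22 with quantile normalization. Its direction thus depended on the background correction and the scaling together. The antioxidant factor gene Nfe2l2, which drives Slc7a11, was chosen after its values were seen and differed by -0.39 ± 0.11 (SE, adjusted p 0.0516). Without controls 5 and 6 Nfe2l2 differed by -0.32 (limma adjusted p 0.168). The 9 genes had a median of -0.16, and 7 of them had a negative difference, against 59.7% of all genes.

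Among 17 genes of amino acid use, 1 passed in limma's fit, against 5.01% of all genes. With slide as a block 0 of 17 passed (Arg1 adjusted p 0.0819 as a random and 0.149 as a fixed block). Arg1, the arginase that splits the arginine brought in by Slc7a1, fell from -1.20 ± 0.29 to -2.44 ± 0.53 (SD, n = 6 each), a difference of -1.24 ± 0.23 (SE, adjusted p 0.0154), or 2.36-fold. Its groups did not overlap, and it was -1.23 on slide 1 and -1.25 between slides 3 and 2. The size of the difference depended on the background correction. After a normexp background it was -0.39 with 75th percentile scaling and -0.73 with quantile normalization. The list's median was -0.09 over all arrays, 0.32 on slide 1 and 0.03 without controls 5 and 6. Of the 17 genes, 4 were lower with fipronil on slide 1, against 51.6% of all genes. Without controls 5 and 6, Cbs was at -0.99 (adjusted p 0.0511) and Arg1 at -1.29 (adjusted p 0.0525), both no longer past the threshold.

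The genes whose values most resembled those of Slc38a2 over the 12 arrays were Atxn7l3b (Pearson r = 0.98), Rbm4b (0.96), Prkar1b (0.96), Psma1 (0.95) and Med4 (0.95). All were lower with fipronil, by -0.68, -0.72, -0.98, -0.45 and -0.54 in that order, and on slide 1 as well. These arrays share treatment, slide and scaling, so the likeness describes mainly that difference. After the 4 means of slide and treatment were removed, the closest were Rbm4b (0.96), Ap5z1 (0.93), Mmadhc (0.93), Utp4 (0.93) and H2ax (0.92), so that Rbm4b, an RNA-binding protein gene, was in both sets. On slide 1 Mmadhc was higher with fipronil, by 0.65, and the others of that set were lower. Each set here is the top of 9774 tested genes with a symbol over only 12 arrays, so nothing is read from the size of r. For Slc7a5 the closest over the 12 arrays were Zfp639, Ttc17, Pex2, Gins4 and Tmem208 (r from 0.84 to 0.86). After the means were removed they were Dctd, Etv5, Polh, Sema4d and Man1b1 (0.82 to 0.90), none of them in the former set.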

How the data were processed

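RNA of 12 samples was labelled with Cy3 and each sample was hybridised to its own Agilent rat array of 62976 spots. Per the submitters' processing notes, the authors quantified the spots with Agilent Feature Extraction 10.7. The processed signal is, per the file headers, an intensity after background subtraction and detrending and was not scaled between arrays. Mean signal and local background are unprocessed intensities, per the file headers, and the other columns used are flags of 0 or 1 (well above background, outlier, saturated). The deposited series table holds log2 values quantile-normalized by the authors, with a median of 2.63 on every array and a lowest value of 1.5, not centred by gene. Each of its columns matched the processed signal of its own array best (Spearman 0.994). Slides were read from the array barcodes.

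Outlier spots (323 to 711 an array) were left out unless all spots of a probe were marked, and 0 spots were saturated. Log2 processed signals were scaled by subtracting each array's 75th percentile, and spots of a probe were averaged. Probes well above background on at least 6 of 12 arrays were kept (16291), with the brightest per gene. Names came from RefSeq GRCr8 by accession (21109 probes), symbol (6684) or synonym (424), and the array's own name was kept for 17381. Groups came from the labels. Fipronil was compared with control by limma 3.58.1 (lmFit, eBayes, two-sided tests; R 4.3.3; data.table, version 1.17.8) over all 13542 genes, with Benjamini-Hochberg adjustment and a threshold of 0.05. The procedure was tested on simulated data. The members and gene lists were chosen with earlier results of these data known. Genes named were all members, and of each list up to 4 of those that passed, by adjusted p, or the 2 brightest where none did. The motif GCNNNGTCA replaced a planned shorter string that did not spell the antioxidant response core. Likeness is the highest Pearson r for Slc38a2 and Slc7a5. Alternatives were other scalings, normexp background (offset 50), the authors' table, other filters, slide or replicate number as a block, the mean of a gene's probes, and arrays left out. The number of arrays, 6 a group, limits the precision.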

Additional observations from a re-analysis of the deposited data

Results flagged for a closer look

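Among 26 groups of 6 arrays examined for a single array far from the rest, 2 held one, both for Arg1, and chance alone marks about 5% of such groups. For Arg1 the gap of control replicate 2 to its nearest neighbour was 0.752 of the whole range of the 6 controls, with a log2 value of -0.63 against -1.38 to -1.20 in the other controls. The gap of fipronil replicate 3 was 0.819 of the range of the fipronil arrays, at -3.51 against -2.35 to -2.09. The groups of Arg1 did not overlap, which leaving out arrays could not change. None of the 8 tested members held such an array, but this measure looks for 1 array that stands alone and does not see a pair such as controls 5 and 6.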

How the results depend on the processing

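Slc38a2 was lower under all 11 other settings (-0.87 to -0.66) and without each array in turn (-0.76 to -0.67). With slide as a random block it was -0.72. The fixed block also gave -0.72, which repeats the slide 1 value, since only slide 1 informs the difference in that fit. These values are descriptions, since the members were chosen on this contrast. Slc1a4 turned to 0.69 and Cbs to 0.48 under a normexp background with 75th percentile scaling. Under that setting 6774 genes passed (5113 higher, 1661 lower) and the median of all genes was 0.17, against -0.08 as reported and -0.18 under median scaling (150 higher, 435 lower); 2 members, 6 other carriers, 4 response genes, 7 cystine and glutathione genes and 2 genes of amino acid use then passed. With normexp and quantile normalization 2 cystine and glutathione genes passed. With no filter on dim probes 16313 genes passed (15088 higher, 1225 lower), with 3 members, 21 other carriers and 2 cystine and glutathione genes; the cause was not tested. With slide as a fixed block 12 genes passed and as a random block 21. The lists of other carriers, cystine and glutathione, and amino acid use then gave 0 each, and so they did without both controls 5 and 6, a setting chosen after seeing the data, where 94 genes passed. Members past the threshold were 0 with the fixed block.

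Both groups have replicates numbered 2, 3, 7 and 8. Deviations from the group means, correlated across genes between the arrays of a number, gave 0.43, 0.08, -0.11 and -0.31, so the numbers were not taken as pairs. With the replicate block 0 of 13542 genes passed, and so did 0 members and 0 genes of any list, with Slc38a2 at -0.74.

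With each array left out in turn, 228 to 2022 genes passed. The count was within 1.5 times of 678 only without fipronil replicate 7 (889), was highest without fipronil replicate 8 and lowest without fipronil replicate 3. The counts ran from 1 to 2 for members, 0 to 2 for other carriers, 0 to 1 for the response, 1 to 3 for cystine and glutathione and 1 to 2 for amino acid use. The upper end came in each list without fipronil replicate 8.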
